A study of Mus musculus with 4 samples.

Results

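The Schlafen (Slfn) genes of the mouse were followed in cells labelled PMN-MDSCs. These are polymorphonuclear suppressor cells of the myeloid line that resemble neutrophils and restrain T cells in hosts with tumours. The members were the rows of the deposited count table named Slfn1, Slfn2, Slfn3, Slfn4, Slfn5, Slfn8 and Slfn9, 7 of 18751 distinct gene names, and all 7 names were present. A pair of further rows of the family, Slfn10-ps and Slfn14-ps, are described beside them. The cells came from CD300ld KO mice (2 libraries) and from WT mice (2 libraries), all of strain C57BL/6 and aged 8 weeks, and both groups carried subcutaneous B16-F10 tumours, a transplantable mouse melanoma line. CD300ld is a cell-surface protein of neutrophils and other myeloid cells. PMN-MDSCs were taken on day 15 by magnetic sorting (a kit that enriches neutrophils). Neither the organ, nor the part of Cd300ld that was removed, nor whether each library came from a separate mouse, is given in the labels, so p-values reflect how these libraries vary, and that spread may be technical alone.

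Schlafen proteins share an N-terminal domain that in several members binds or cleaves RNA, transfer RNA above all, and many of the genes are induced by type I interferon. By protein size the mouse genes fall into short (Slfn1, Slfn2), intermediate (Slfn3, Slfn4) and long members (Slfn5, Slfn8, Slfn9), the long ones with an added helicase-like domain. In leukocytes the family is best known for keeping T cells and monocytes quiescent, through Slfn2, and for a myeloid member, Slfn4, which marks suppressor cells in the inflamed mouse stomach.

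The data show a single change in the family that passed the test. Slfn4 was 8.03-fold lower in KO than in WT libraries, and it held 6.57% and 9.68% of the counts of the 7 members in the KO libraries, against 30.6% and 35.8% in the WT libraries. The exact (Clopper-Pearson) 95% intervals of these shares, for counting error, were 3.05% to 12.1% and 4.52% to 17.6% in KO, against 23.5% to 38.4% and 30.1% to 41.9% in WT. Slfn1, Slfn2 and Slfn8 did not pass the test, and Slfn3, Slfn5 and Slfn9 had too few counts to be tested with the other genes. Of 7685 genes tested, 5.97% were called in either direction at an adjusted p below 0.05 and 3.27% were called lower in KO, against 1 of the 4 members tested, while 2.71% were called higher, against 0 of these 4.

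The libraries held 830931 and 835510 counts in KO, against 674599 and 920839 in WT. Cd300ld itself had 2 and 3 counts in the KO libraries, against 0 and 11 in the WT libraries, so counts of the deleted gene are too few to check the genotype labels. All 14 neutrophil markers were counted in every library, and their summed level was 5777 and 5193 CPM in KO, against 34532 and 38579 CPM in WT, with 11 of 14 lower and 0 higher. Monocyte and macrophage markers summed to 921 and 1038 CPM in KO and to 1787 and 1973 CPM in WT, with 6 of 14 lower. Erythroid markers summed to 215886 and 196272 CPM in KO and to 156649 and 165074 CPM in WT, with 9 of 13 higher. T and NK cell markers summed to 533 and 565 CPM in KO and to 429 and 479 CPM in WT, with a median log2 fold change of 0.43; of 14 tested, 13 had positive values, none of them called, and 1, Nkg7, was lower. B cell markers summed to 5836 and 6428 CPM in KO and to 4369 and 5178 CPM in WT, with a median log2 fold change of 0.40 and 0 of 10 called. Plasmacytoid dendritic cell markers summed to 901 and 750 CPM in KO and to 659 and 711 CPM in WT, with 1 of 7 higher (Siglech). The 2 platelet markers that could be tested, of 7 in the table, were not called. Erythroid sums thus exceeded neutrophil sums in every library, and in both KO libraries the B cell sums did too. The libraries held markers of several cell types, and the Schlafen levels given here are those of the mixture.

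The sequences shown first are the 250 bases before the RefSeq start of the 2 genes with the lowest KO to WT ratio, Slfn4 and Slfn9, each beside a family member that shares a stretch of its promoter. The exact 95% intervals of the ratios of Slfn9 and Slfn8 overlap (0.0261 to 0.458 and 0.317 to 1.25), and differences in ratio between the genes were not tested. RefSeq promoters (build GRCm38.p6) were matched by symbol for all 7 members, with the first of 2 windows taken for Slfn8. These coordinates belong to that build and not to the mm8 or mm9 builds named for the counts. Capitals in Slfn4 (chr11:83174936-83175185, + strand) and Slfn1 (chr11:83116570-83116819, + strand) mark ACTTCCTGG, the longest run found in the windows of Slfn1, Slfn2, Slfn3 and Slfn4 alike. Capitals in Slfn9 (chr11:82991831-82992080, - strand) and Slfn8 (chr11:83020811-83021060, - strand) mark a match to GAAA, any 2 bases, then GAAA, the core of the interferon-stimulated response element, read here on the opposite strand.
Slfn4: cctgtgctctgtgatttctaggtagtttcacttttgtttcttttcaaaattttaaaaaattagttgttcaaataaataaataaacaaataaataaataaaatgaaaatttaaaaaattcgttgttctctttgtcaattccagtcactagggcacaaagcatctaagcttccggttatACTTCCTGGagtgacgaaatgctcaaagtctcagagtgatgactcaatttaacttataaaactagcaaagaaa
Slfn1: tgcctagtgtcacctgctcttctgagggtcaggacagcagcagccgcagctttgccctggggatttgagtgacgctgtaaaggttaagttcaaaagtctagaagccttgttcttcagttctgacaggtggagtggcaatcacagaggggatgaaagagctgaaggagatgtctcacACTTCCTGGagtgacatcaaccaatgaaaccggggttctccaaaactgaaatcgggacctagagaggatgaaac
Slfn9: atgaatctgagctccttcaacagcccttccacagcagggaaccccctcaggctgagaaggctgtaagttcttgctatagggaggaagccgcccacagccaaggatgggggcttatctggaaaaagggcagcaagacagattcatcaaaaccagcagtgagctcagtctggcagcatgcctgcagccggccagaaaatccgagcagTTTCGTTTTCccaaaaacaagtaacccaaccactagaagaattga
Slfn8: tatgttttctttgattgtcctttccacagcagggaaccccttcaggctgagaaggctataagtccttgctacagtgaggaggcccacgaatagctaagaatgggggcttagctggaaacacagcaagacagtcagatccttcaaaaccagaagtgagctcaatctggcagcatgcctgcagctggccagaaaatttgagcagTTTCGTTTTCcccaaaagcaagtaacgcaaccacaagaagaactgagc

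The run ACTTCCTGG, which contains the GGAA core bound by ETS factors on its opposite strand, was searched on both strands. It stood at 73 to 65 bases before the start in Slfn4, 74 to 66 in Slfn1, 55 to 47 in Slfn2 and 42 to 34 in Slfn3. The same letters were found in 0.700% of 32851 promoter windows of this length, and, as they were read from the members, their presence in these 4 is no test. The response element core was found in 2.98% of windows on either strand, and among the members in the windows of Slfn5, Slfn8 and Slfn9. Only exact matches were searched. The Slfn4 window holds TTTCACTTTT, which differs from the core on the opposite strand in its last base. Such near matches were not counted in any window. The exact match lay 45 to 36 bases before the start of Slfn9, 48 to 39 before that of Slfn8 and 155 to 146 before that of Slfn5. Of 24 interferon effector genes with a RefSeq window 8 held an exact match, among them Rsad2, Oas3 and Ifit1, and of 13 neutrophil marker genes 0 did. These counts are per gene, with a match in any of its windows taken, whereas the 2.98% is a share of windows. The share over all genes was not worked out. Slfn4 and Slfn1, with the same run at nearly the same distance, had log2 fold changes of −3.01 and 0.34. TTCNNNGAA, a STAT-type palindrome held by 7.02% of windows, had no match in the 7 windows. A match is a description of letters and not of binding.

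Slfn4, the intermediate member that interferon and microbial ligands induce in mouse macrophages, had 9 and 9 counts in the KO libraries, against 48 and 95 in the WT libraries. In CPM, the count scaled to a common library size, this was 11.3 and 10.9 in KO, against 73.7 and 105 CPM in WT. Both KO libraries lay far below both WT libraries, and the KO pair differed by less than the WT pair. The log2 fold change was −3.01 ± 0.38 (SE; 95% interval −3.82 to −2.20), with an adjusted p of 0.000120 in edgeR's quasi-likelihood test over all genes. In WT the level of Slfn4 was above 78.8% of the genes tested, on the CPM scale. In bulk RNA, fewer cells of a type and less RNA per cell cannot be told apart.

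Slfn3, its neighbour on the chromosome and nearest in sequence, is known from gut epithelium in rodents. It had 5 and 4 counts in KO, against 5 and 10 in WT, which is 6.30 and 4.83 CPM in KO against 7.68 and 11.1 CPM in WT. The groups did not overlap, yet with so few counts the ratio of KO to WT was 0.575 and its exact 95% interval, for counting error alone, was 0.222 to 1.40, which includes no difference. The KO ratio of Slfn4, measured the same way, was 0.121 (0.0695 to 0.197), and the difference between the genes was not tested. Their transcripts share sequence: 13.1% of the words of 50 bases in the longest coding transcript of Slfn3 also occur in a transcript of Slfn4, and 6.45% the other way. Their separate counts are therefore uncertain. With both rows summed, the log2 fold change was −2.57 ± 0.35 (edgeR, adjusted p = 0.000190).

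**Figure D1:**
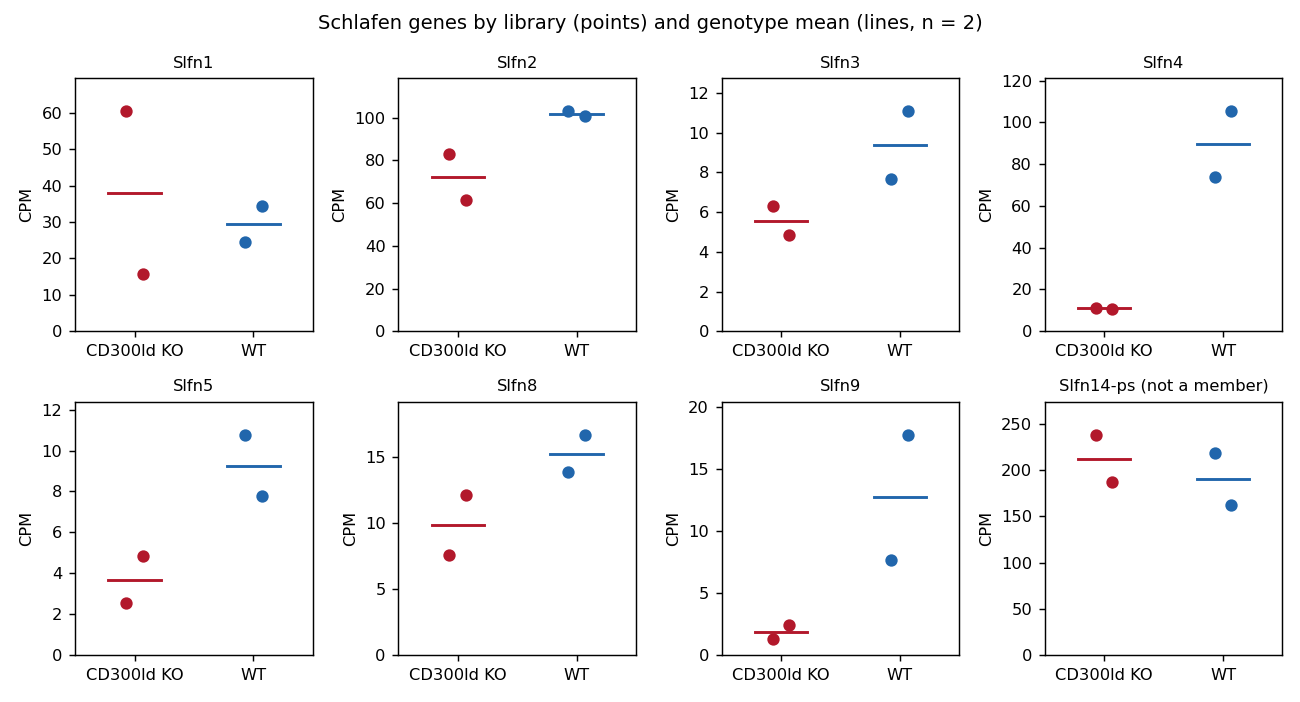
Level of each Schlafen member and of Slfn14-ps in CPM, with 1 point per library, CD300ld KO left of WT, and a line at the mean of 2 libraries; each panel has its own axis from 0. Slfn4 has 11.3 and 10.9 CPM in KO and 73.7 and 105 CPM in WT, and Slfn1 is the member whose KO points lie on both sides of the WT points.

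Among the short members, Slfn2 keeps T cells and monocytes quiescent in mice and shields transfer RNA from cleavage in T cells. It had 66 and 51 counts in KO, against 67 and 91 in WT, or 83.1 and 61.6 CPM in KO against 103 and 101 CPM in WT. Both KO libraries were below both WT libraries, but the difference did not pass the test, with a log2 fold change of −0.49 ± 0.25 (edgeR, adjusted p = 0.310). Its 95% interval ran from −1.03 to 0.04, which holds both a fall of that size and no difference. Slfn2 took 48.2% and 54.8% of the counts of the 7 members in KO and 42.7% and 34.3% in WT.

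Slfn1, first described in developing thymocytes, where its forced expression slows growth, was the one member whose libraries overlapped. It had 48 and 13 counts in the KO libraries, against 16 and 31 in the WT libraries. On the CPM scale these were 60.5 and 15.7 in KO and 24.6 and 34.3 in WT, so that KO library 1 was the highest of all and KO library 2 the lowest. KO library 1 exceeded KO library 2 by a ratio of 3.85, with an exact 95% interval of 2.05 to 7.75 for counting error. The WT pair had a ratio of 1.40 (0.741 to 2.74). The log2 fold change of 0.34 ± 0.51 (edgeR, adjusted p = 0.797) rested on KO library 1, and without that library it was −0.93 (adjusted p = 0.525). T and NK cell markers went both ways between the KO libraries, with Cd2 at 70.5 CPM in KO library 1 and 45.9 CPM in KO library 2 and Lck at 94.5 and 137.6 CPM, 2 genes chosen after their values were seen. Their part in the Slfn1 values was not tested.

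The long members were all scarce. Slfn8, counted with Slfn9 among the mouse relatives of human SLFN11 and SLFN13, had 6 and 10 counts in KO, against 9 and 15 in WT. Its CPM was 7.56 and 12.1 in KO and 13.8 and 16.6 in WT. These groups did not overlap either, but the log2 fold change of −0.63 ± 0.64 did not pass (edgeR, adjusted p = 0.669), and its 95% interval from −1.98 to 0.72 holds changes of both signs.

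Slfn9 had 1 and 2 counts in KO, against 5 and 16 in WT. This was 1.26 and 2.41 CPM in KO and 7.68 and 17.7 CPM in WT, so that WT library 2 held most of the counts. The ratio of summed KO to WT counts, scaled by library size, was 0.137, and its exact 95% interval ran from 0.0261 to 0.458. Slfn9 lay below the filter on low counts. Fitted with no filter, it had a log2 fold change of −2.71 ± 1.05 and an unadjusted p of 0.00979 in edgeR, with an adjusted p of 0.190.

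Slfn5, an interferon-inducible nuclear protein, had 2 and 4 counts in KO, against 7 and 7 in WT, or 2.52 and 4.83 CPM in KO against 10.8 and 7.76 CPM in WT. The groups did not overlap, and the summed ratio was 0.410 with an exact interval from 0.129 to 1.14. An antisense gene, Slfn5os, overlaps Slfn5, and as no strand setting is given, reads of the 2 cannot be told apart. A count of 0 allows up to 3 counts, or 3.32 to 4.61 CPM depending on the library, so that the KO values of Slfn5 and Slfn9 lie close to or under what a count of 0 allows.

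Like Slfn3 and Slfn4, the copies Slfn8, Slfn9 and Slfn10-ps share sequence. Of the words of 50 bases in the longest coding transcript, 15.4% in Slfn8 and 11.2% in Slfn9 occur in another Schlafen gene, against 0.606% in Slfn1, 4.27% in Slfn2 and 0 in Slfn5. Slfn10-ps, a pseudogene beside them, had 2 and 0 counts in KO, against 4 and 2 in WT. With the 3 rows summed the log2 fold change was −1.31 ± 0.49 with a 95% interval of −2.35 to −0.27, and an adjusted p of 0.142 in edgeR.

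As a family, the 7 members summed to 173 and 112 CPM in KO and to 241 and 294 CPM in WT. The mean was 142 ± 42.6 CPM in KO and 267 ± 37.0 CPM in WT (SD, n = 2 each; exact permutation test, two-sided p = 0.333, which is the smallest p that 2 libraries against 2 allow). Without Slfn4 the sums were 161 and 101 CPM in KO and 167 and 188 CPM in WT, with means of 131 ± 42.3 CPM in KO and 178 ± 14.8 CPM in WT (exact permutation p = 0.333). The log2 ratio of KO to WT means was −0.91 with Slfn4 and −0.44 without it. Neither sum holds Slfn14-ps, which is not a member and had 238 and 187 CPM in KO and 218 and 163 CPM in WT. For 6 of the 7 members both KO libraries lay below both WT libraries, and for 0 both lay above. Among the 9254 names with at least 20 counts in all, the number held by the member with fewest, both KO libraries lay below both WT libraries in 23.4% and above both in 23.3%. These members lie in 1 chromosomal cluster and share sequence, so they are not independent of each other.

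**Figure D2:**
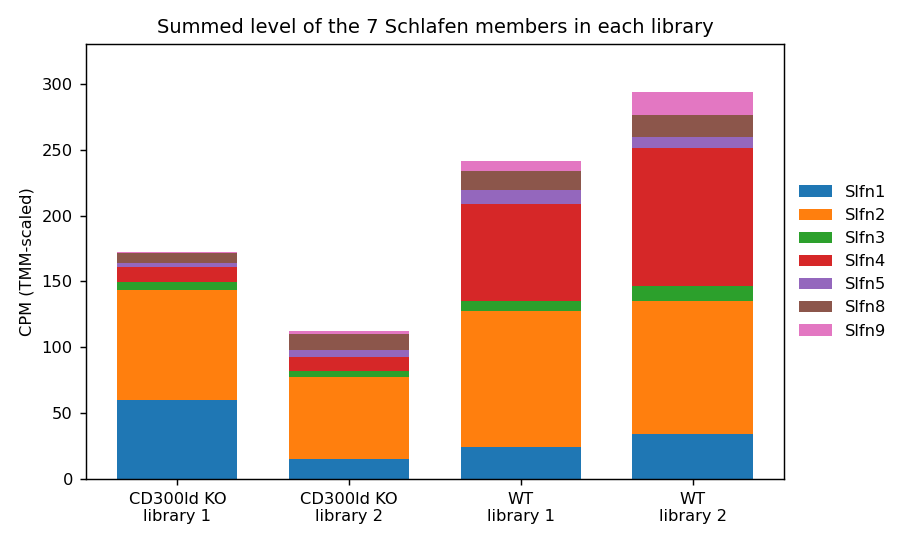
Stacked CPM of the 7 Schlafen members in each library, CD300ld KO left of WT, with 1 colour per gene and an axis from 0. The Slfn4 segment is 11.3 and 10.9 CPM high in KO and 73.7 and 105 CPM in WT, and the Slfn2 segment is the largest in every KO library.

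Levels of different members were compared per kilobase of the longest coding transcript. Slfn2 was the highest of the members, with 43.5 ± 9.16 CPM per kb in KO and 61.2 ± 0.898 in WT. In WT, Slfn4 came next with 22.6 ± 5.63 CPM per kb and then Slfn1 with 15.8 ± 3.70. The libraries of these 2 genes, at 18.6 and 26.6 for Slfn4 and at 13.2 and 18.4 for Slfn1, nearly met. Slfn3 (4.77 ± 1.22), Slfn8 (3.80 ± 0.492), Slfn9 (2.20 ± 1.23) and Slfn5 (1.55 ± 0.355) followed in WT, and the libraries of Slfn3 overlapped those of Slfn8, as those of Slfn9 overlapped those of Slfn5. In KO, Slfn4 stood at 2.80 ± 0.0841 CPM per kb, level with Slfn3 at 2.83 ± 0.528 and Slfn8 at 2.45 ± 0.796, and below Slfn1 at 20.4 ± 17.0, while Slfn5 stood at 0.614 ± 0.273 and Slfn9 at 0.318 ± 0.142 (SD, n = 2 for each value). In this table the median count per gene was 9 for the shortest of 4 groups of transcripts by length and 7.75 for the longest, so counts did not grow with length. Without the division Slfn2, Slfn4 and Slfn1 stayed the highest in WT, in that order. The order of the scarcer members in WT changed, with mean levels of 15.2 CPM for Slfn8, 12.7 CPM for Slfn9, 9.38 CPM for Slfn3 and 9.25 CPM for Slfn5. In KO the undivided means were 11.1 CPM for Slfn4, 9.81 CPM for Slfn8 and 5.56 CPM for Slfn3. Slfn4 and Slfn3 were thus level in KO only per kilobase.

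Slfn14-ps is an older name that RefSeq lists for Slfn14, which is known from erythroid cells and platelets, where human SLFN14 mutations cause bleeding. It was the Schlafen row with the most counts, with 189 and 155 counts in KO, against 142 and 147 in WT. Its level was 238 and 187 CPM in KO and 218 and 163 CPM in WT, and the groups overlapped. Per kilobase of the longest coding transcript, its mean was 57.4 ± 9.72 CPM in KO and 51.4 ± 10.5 CPM in WT (SD, n = 2 each). Its log2 fold change was 0.17 ± 0.20, with a 95% interval of −0.26 to 0.60 (edgeR, adjusted p = 0.738). Erythroid markers had a median log2 fold change of 0.47 in the same libraries. Per 1000 counts of those markers, Slfn14-ps had 1.10 and 0.953 counts in KO, against 1.39 and 0.987 in WT.

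The genes with the pattern most like that of Slfn4 over the 4 libraries were Ly6g, Anxa3 and Lcn2. Their root mean square differences from it in centred log2 CPM were the smallest, at 0.07, 0.13 and 0.13. With so few libraries this likeness is set largely by the KO to WT difference for which Slfn4 was called. Whether these genes share cells or regulation with Slfn4 was not tested. Ly6g, the surface marker of mouse neutrophils, had 8 and 8 counts in KO, against 49 and 90 in WT, almost count for count the values of Slfn4. Anxa3, an annexin abundant in neutrophils, had 12 and 12 counts in KO, against 69 and 106 in WT, and fell by 2.91 ± 0.33 on the log2 scale (edgeR, adjusted p = 3.10e-05). Lcn2, the siderophore-binding lipocalin of neutrophil granules, had 348 and 343 counts in KO, against 1505 and 2454 in WT.

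Set against the summed counts of the neutrophil markers, the gap in Slfn4 between the genotypes was small, with both KO libraries just below both WT libraries. There were 1.96 and 2.09 Slfn4 counts per 1000 counts of the 14 neutrophil markers in KO, and 2.14 and 2.73 in WT. Per 1000 counts of monocyte and macrophage markers, Slfn4 had 12.3 and 10.5 counts in KO, against 41.3 and 53.3 in WT, and per 1000 counts of the 33 interferon effectors it had 3.44 and 3.61 in KO and 13.6 and 20.6 in WT. Slfn2 went the other way against neutrophil markers, with 14.4 and 11.9 counts per 1000 in KO and 2.98 and 2.61 in WT. Its own CPM was lower in both KO libraries than in both WT libraries. The marker sum fell further, so the ratio rose. Genes with many counts weigh most in the neutrophil sum. S100a8, Ngp and S100a9, the largest in WT, had log2 fold changes of −2.85, −3.29 and −2.64. Retnlg, Cxcr2 and Csf3r, the markers not called, had −0.55, −0.46 and −0.17, far from the −3.01 of Slfn4. The small gap thus holds for the sum and not for every marker. All these ratios were chosen after the values were seen, and they have no test and no interval. In KO, those of Slfn4 rest on 9 counts per library. The part of the neutrophil markers in the Slfn4 result was not tested.

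**Figure D3:**
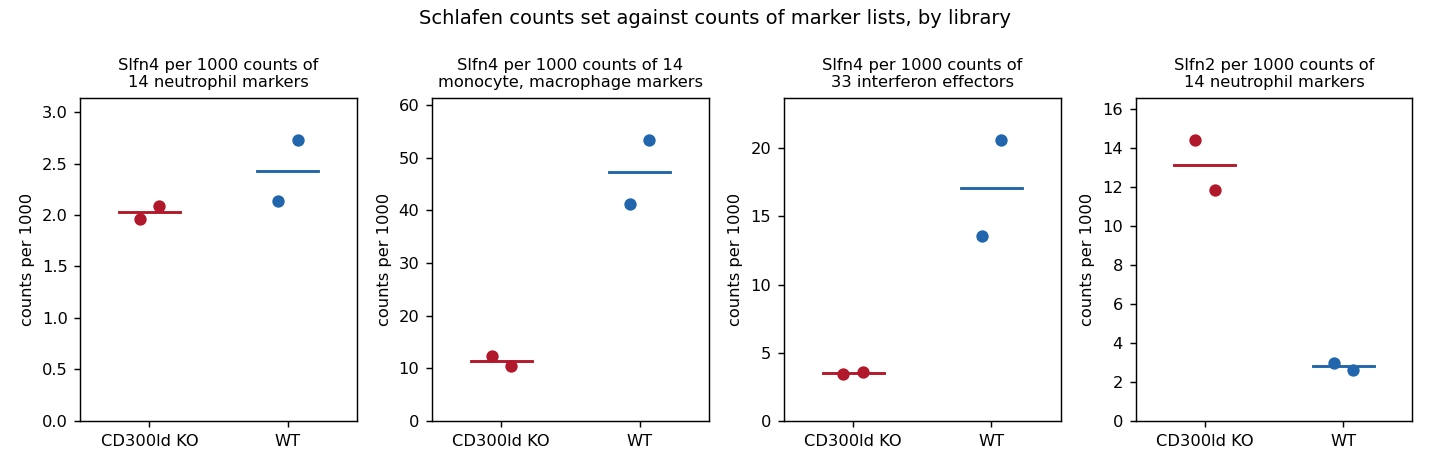
Counts of Slfn4 or Slfn2 per 1000 counts of a marker list, 1 point per library, CD300ld KO left of WT, lines at the mean of 2 libraries and axes from 0. Slfn4 lies at 1.96 and 2.09 per 1000 neutrophil marker counts in KO and at 2.14 and 2.73 in WT. Its ratio to each list is lower in both KO libraries, with the narrowest gap for the sum of the neutrophil markers.

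Interferon is the best known inducer of the family, and its target genes were set beside the members. Of 27 effector genes of the type I interferon response that could be tested, of 33 in the list, 10 were lower in KO and 0 higher; the median log2 fold change was −0.86, against 0.00 over all genes tested. Xaf1, a pro-apoptotic interferon target, fell by 4.07 ± 0.57 on the log2 scale (edgeR, adjusted p = 0.000278), a call lost in limma-voom (adjusted p = 0.0643). Its size depended on the KO libraries, which held 1 and 5 counts, against 51 and 47 in the WT libraries, and leaving out KO library 1 gave a log2 fold change of −3.40, leaving out KO library 2 one of −5.51. Oas3, an oligoadenylate synthetase that senses double-stranded RNA, fell by 1.72 ± 0.20, Ifitm3, which blocks viral entry, fell by 1.54 ± 0.18, and Rsad2, encoding viperin, fell by 1.14 ± 0.12. The Slfn4 change of −3.01 lies between that of Xaf1 and these 3. Neutrophil markers had a median log2 fold change of −2.50 and monocyte and macrophage markers one of −0.99 in the same libraries, and their part in the effector counts was not tested.

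Of 10 genes of the interferon receptor and its signalling, 1 was lower and 0 higher; the median log2 fold change was 0.02. Irf7, the transcription factor that amplifies interferon production, had 94.5 and 76.1 CPM in KO and 195 and 203 CPM in WT, and fell by 1.22 ± 0.21 on the log2 scale (edgeR, adjusted p = 0.00173). The receptor chains Ifnar1 and Ifnar2 had 0.67 ± 0.33 and 0.57 ± 0.24 (adjusted p = 0.293 and 0.207). The kinases Jak1 and Tyk2 had 0.22 ± 0.18 and 0.14 ± 0.35. Stat2 and Irf9, which carry the signal to the nucleus, had −0.43 ± 0.43 and −0.13 ± 0.22. Irf1 and Irf3 had −0.40 ± 0.28 and −0.09 ± 0.34, and Socs1, a feedback inhibitor, had 0.50 ± 0.74. Apart from Irf7, none of the 10 passed the test.

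**Figure D4:**
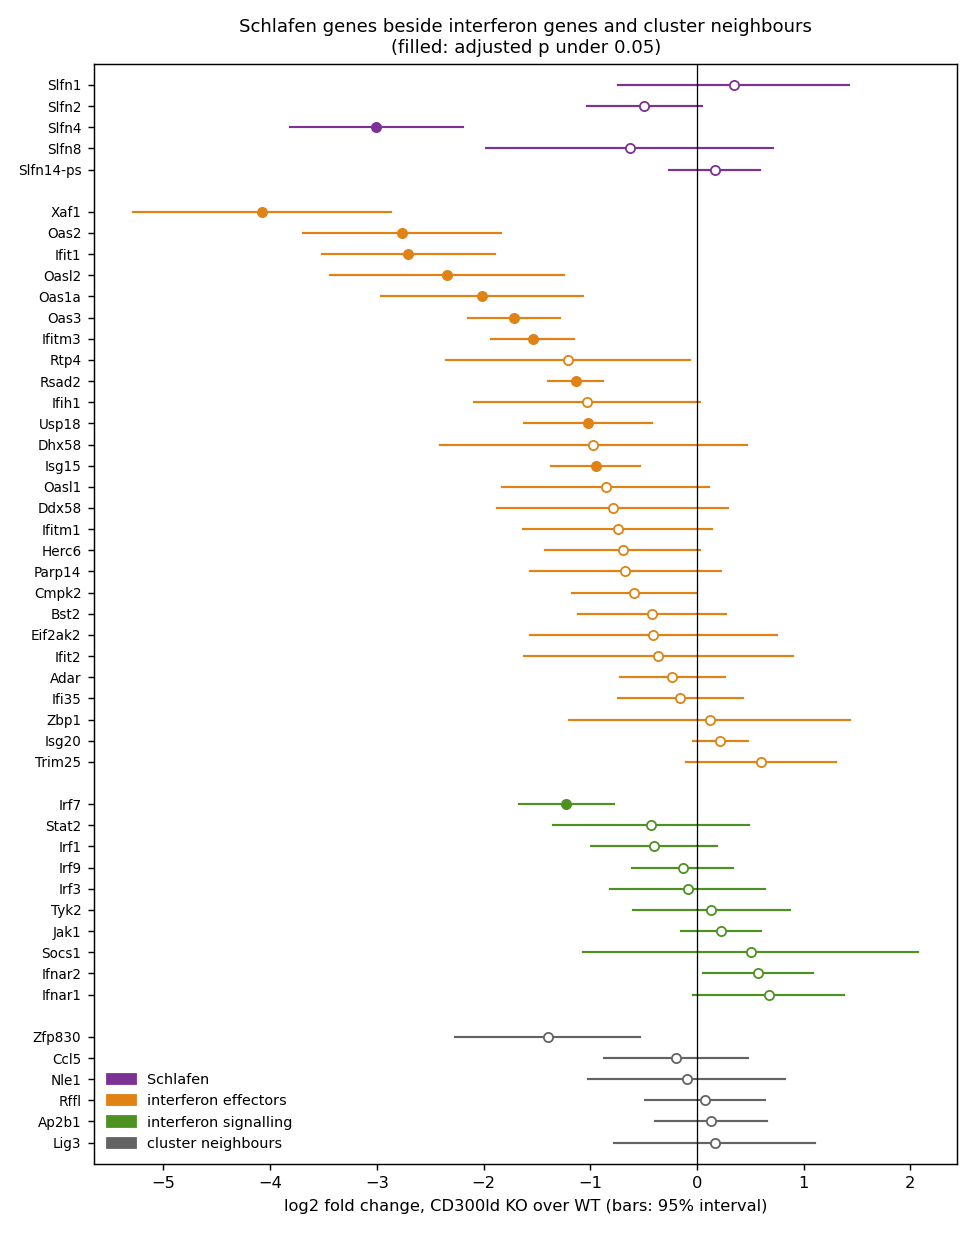
Log2 fold change of CD300ld KO over WT with its 95% interval for the tested Schlafen genes, the interferon effectors, the interferon receptor and signalling genes and the tested neighbours of the Schlafen cluster; filled points have an adjusted p below 0.05 in edgeR. Slfn4 stands at −3.01 and the other Schlafen points lie between −0.63 and 0.34.

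The Schlafen genes form 1 cluster on chromosome 11, the chromosome that also carries the CD300 genes. In RefSeq the order is Slfn5, Slfn9, Slfn8, Slfn10-ps, Slfn2, Slfn1, Slfn4, Slfn3 and Slfn14, with Unc45b before it. Slfn4 thus stands between Slfn1, at a log2 fold change of 0.34, and Slfn3, which was not tested. Of 15 neighbouring genes 11 were in the table and 6 were tested, with 0 called at an adjusted p below 0.05 and a median log2 fold change of −0.01. Zfp830, a zinc finger protein gene on the Slfn5 side of the cluster, was the neighbour nearest to a call, at −1.40 ± 0.41 (edgeR, adjusted p = 0.0546). At the other 5, Lig3, Rffl, Nle1, Ap2b1 and Ccl5, values ran from −0.20 to 0.17.

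Because several Schlafen proteins act on transfer RNA, genes that cut or protect it were counted too. Of 6 tested genes, of 11 in the list, 1 was lower and 0 higher. Nsun2, a methyltransferase whose marks protect transfer RNA from cleavage, had 105 and 96.6 CPM in KO and 161 and 196 CPM in WT, and fell by 0.84 ± 0.21 on the log2 scale (edgeR, adjusted p = 0.0229). Rnh1, the inhibitor of RNases such as angiogenin, had a log2 fold change of −0.31 ± 0.21 (adjusted p = 0.493).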

How the data were processed

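Total RNA extracted with TRIzol was sequenced from TruSeq libraries, per the labels' protocols. The authors deposited 1 table of raw read counts per gene name, with no normalization. The submitters' processing notes name Bowtie 0.12.2 and 2 builds, mm8 and mm9, without their roles. No source used here gives the counting program, the strand setting or how reads from sequence shared by Schlafen copies were assigned. Of 21831 rows, 18751 distinct names were kept once each, since rows of 1 name held identical values. Column names gave the genotype but not the sample, so library numbers are only names, and nothing pairs libraries across genotypes.

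The whole table was fitted in R 4.3.3 with edgeR 4.0.16 (TMM scaling, filterByExpr at its settings of 10 counts and 15 in total, quasi-likelihood test of KO against WT, Benjamini-Hochberg over 7685 genes, threshold 0.05), a procedure checked on simulated counts. The SE is the size of the log2 fold change divided by the square root of F. CPM uses TMM-scaled library sizes. Ratios of summed counts have exact 95% conditional intervals, which, like the limit of 3 counts, cover counting error only, as reads carried no molecular identifiers. Alternatives were RLE factors, no scaling, no filter, 1 CPM in 2 libraries, DESeq2 1.42.0 and limma-voom (limma 3.58.1). Others were leaving out haemoglobin and mitochondrial genes, and leaving out each library. Summing copies that share sequence was added after the values were seen. A gene of the signalling list and a gene of the neighbour list are not reported here and were left out of those lists. The members and lists were chosen with earlier results of these data known. The plan was to name all Schlafen rows, the interferon signalling genes, the 4 effectors with the smallest p and tested neighbours. It added up to 2 genes of other lists and the 3 genes most like each called member (log2 CPM, prior count 2). Further neutrophil markers, further T and NK cell markers and Ifit1 were named beyond this plan and were not set in advance. Promoters and gene order came from RefSeq (GRCm38.p6) and transcripts from GENCODE M21, used for sequence and length only.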

Additional observations from a re-analysis of the deposited data

How the results depend on the processing

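Slfn4 stayed lower and past the threshold under every alternative run, with log2 fold changes from −3.25 to −2.57 and adjusted p from 4.13e-11 to 0.00204. The count of members called was 1 lower and 0 higher throughout. Genes called were 299 with DESeq2, against 459 in edgeR, and between 412 and 538 in fits without 1 library; the cause was not tested. Interferon effectors called lower ran from 7 to 10 without 1 library, 7 of them without WT library 2. The log2 ratio of the summed members ran from −1.25, without KO library 1, to −0.63, and was −0.91 with raw totals. When 1 library was left out, signs turned for genes that were not called. Slfn1 ran from −0.93 to 1.01, Slfn14-ps from −0.046 to 0.36, Tyk2 from −0.0052 to 0.25, Irf9 from −0.29 to 0.032, Irf3 from −0.63 to 0.31, Socs1 from −0.13 to 1.94, Lig3 from −0.30 to 0.50, Rffl from −0.22 to 0.30, Nle1 from −0.44 to 0.26 and Ccl5 from −0.48 to 0.019. Zfp830 passed without WT library 2 (−1.62, adjusted p = 0.0391) and without haemoglobin and mitochondrial genes (−1.41, adjusted p = 0.0479). The filter was run anew when a library was left out, and the library left alone in its group was taken to vary as the other group did. Members with under 30 counts in all (Slfn3, Slfn5, Slfn9) are limited by depth.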
